A study of Mus musculus with 8 samples.

Results

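Transcripts of immunoglobulin A (IgA) transport and of plasma cells were followed in epithelial cells of mouse colon, the layer that lines the large bowel. The set held 5 genes out of 55487 in the deposited table, taken by their symbols: Pigr, Jchain, Igha, Igkc and Mzb1. There were 8 libraries of total RNA from C57BL/6J mice, 4 labelled PIM1+/-, a heterozygous genotype of the serine/threonine kinase gene Pim1, and 4 from wild type (WT) mice. The labels state no age, sex or treatment and do not describe the altered allele. They also do not say whether each library came from its own animal, so the spread behind every p-value is that between libraries and may be technical. The cell type is labelled as epithelial, while the extraction text speaks of tissue.

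IgA is the main antibody of mucosal surfaces. Plasma cells beneath the epithelium secrete it as a polymer joined by the J chain. The polymeric immunoglobulin receptor on the basolateral face of the epithelial cell binds that polymer, carries it across the cell and releases it into the lumen with part of the receptor still attached. Pigr encodes this receptor and is an epithelial gene. Igha encodes the constant region of the IgA heavy chain, Igkc that of the kappa light chain, Jchain the joining chain, and Mzb1 an endoplasmic reticulum protein that assists antibody assembly and secretion. The last 4 are known as products of B lineage cells, chiefly plasma cells. In bulk RNA, fewer such cells and less RNA per cell cannot be told apart.

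The promoters of Pigr and Jchain are shown because these genes encode the receptor and the joining chain it binds, and because factors known to act on Pigr differed in level between the genotypes. RefSeq tables on build GRCm38.p6 were matched by symbol for 2 of the 5 genes. The 250 bases before the annotated start are printed 5′ to 3′, for Pigr at chr1:130826434-130826683 on the plus strand and for Jchain at chr5:88527898-88528147 on the minus strand. Capitals mark matches to the 4 motifs searched on both strands: the palindromic E-box CACGTG, the interferon regulatory factor core AANNGAAA, the gamma-activated sequence TTCNNNGAA and the octamer ATGCAAAT.
Pigr: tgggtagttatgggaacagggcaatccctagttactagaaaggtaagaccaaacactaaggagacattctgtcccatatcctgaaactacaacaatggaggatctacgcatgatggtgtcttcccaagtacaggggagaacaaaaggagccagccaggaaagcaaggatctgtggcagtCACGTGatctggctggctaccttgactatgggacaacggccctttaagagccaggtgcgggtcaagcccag
Jchain: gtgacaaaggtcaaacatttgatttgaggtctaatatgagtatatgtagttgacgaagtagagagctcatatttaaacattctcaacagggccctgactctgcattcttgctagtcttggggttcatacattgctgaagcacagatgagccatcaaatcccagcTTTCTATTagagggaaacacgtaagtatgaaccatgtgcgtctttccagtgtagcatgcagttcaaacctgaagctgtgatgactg
The Pigr window held 1 match, an E-box that begins 71 bases before the start, a motif present in 6.02% of 32851 promoter windows of the same length. The Jchain window held 1 match, to the interferon regulatory factor core on the opposite strand, beginning 86 bases before the start, a motif present in 21.3% of windows. The gamma-activated sequence was in 7.02% of windows and the octamer in 1.6%, and these letters were in neither window. A match describes the sequence and does not show that a factor binds there.

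The values were in TPM, read numbers divided by transcript length and scaled to a fixed sum per library, so levels of different genes may be set side by side. The listed genes summed to 990958 to 992187 TPM in each library. Read numbers cannot be recovered from TPM, and depth is therefore unknown. Each library had 12582 to 12850 genes at 1 TPM or more. Pim1 itself averaged 6.67 ± 1.12 TPM in PIM1+/- and 7.8 ± 1.46 TPM in WT libraries (SD, n = 4 each), with overlapping groups and a limma adjusted p of 0.411, so genotypes below are those of the labels. Log2 fold changes are PIM1+/- over WT on log2(TPM + 1), a scale that understates the changes of low genes, given with the SE and a limma p adjusted over all 12760 genes that reached 1 TPM in at least 4 of the 8 libraries.

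The receptor and the plasma cell transcripts lay at opposite ends of the abundance range. Pigr measured 1860.86, 1857.84, 1610.47 and 1848.95 TPM in PIM1+/- replicates 1 to 4, against 1814.31, 1704.05, 1785.82 and 1660.84 TPM in WT replicates 1 to 4. It was among the most abundant transcripts of the colon epithelium, ranking between 57 and 71 of all listed genes by TPM. The groups overlapped, and PIM1+/- replicate 3 was the lowest of all 8 libraries while the other 3 of its group were the highest. The log2 fold change of Pigr was 0.04 ± 0.06 (95% interval -0.09 to 0.18, adjusted p = 0.677), with means of 1794.53 ± 123 TPM in PIM1+/- and 1741.25 ± 71.1 TPM in WT libraries (SD, n = 4 each). That interval spans 0.936-fold to 1.13-fold. Pigr (ENSMUSG00000026417) lies on chromosome 1 from 130826684 to 130852249 on the plus strand (GENCODE M21, GRCm38).

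Igha, the heavy chain constant region that defines IgA, was present at a low level in every library. It measured 2.43, 2.11, 3.03 and 2.86 TPM in PIM1+/- replicates 1 to 4, against 2.11, 3.81, 1.43 and 2.11 TPM in WT replicates 1 to 4. The WT libraries held both the highest and the lowest value, so the PIM1+/- values lay inside the WT range. The log2 fold change was 0.14 ± 0.20 (95% interval -0.31 to 0.59, adjusted p = 0.675). The interval is wider than that of Pigr and spans 0.806-fold to 1.504-fold. Igha (ENSMUSG00000095079) is annotated on chromosome 12 from 113254830 to 113260236 on the minus strand.

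Igkc, the constant region of kappa light chains of every antibody class, was the most abundant plasma cell transcript and the most variable tested one. It measured 9.97, 6.4, 5.98 and 4.54 TPM in PIM1+/- replicates 1 to 4, against 1.67, 9.7, 5.89 and 7.12 TPM in WT replicates 1 to 4. WT replicate 1 was the lowest library, and the groups overlapped. The coefficient of variation was 34.3% in PIM1+/- and 55.0% in WT libraries, beside 6.84% and 4.08% for Pigr in the same order of groups. The log2 fold change of Igkc was 0.24 ± 0.39 (95% interval -0.64 to 1.13, adjusted p = 0.712), and without WT replicate 1 it was -0.17 (adjusted p = 0.695). Igkc (ENSMUSG00000076609), on chromosome 6 from 70726435 to 70726966, lies inside the lincRNA gene Gm30211 on the same strand, which was listed at 0 in every library.

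Jchain and Mzb1 stayed below the level needed for the fit across genes. Jchain (ENSMUSG00000067149, chromosome 5, 88519809 to 88527891) measured 0.53, 0.7, 0.58 and 0.55 TPM in PIM1+/- replicates 1 to 4, against 0.21, 0.73, 0.33 and 0.51 TPM in WT replicates 1 to 4. The WT libraries again spanned the PIM1+/- values. The difference in mean log2(TPM + 1), PIM1+/- minus WT, was 0.15 (p = 0.257 by a two-sided exact permutation test, whose smallest possible p with this design is 0.0286). Mzb1 (ENSMUSG00000024353, chromosome 18, 35647267 to 35649367) was listed at 0 in 7 of 8 libraries and at 0.15 TPM in PIM1+/- replicate 3 (exact permutation p = 1.0). The annotation places Mzb1 in the span of a copy of SPATA24 on the same strand, which had at most 0.21 TPM, so the division of reads between them is uncertain.

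**Figure D1:**
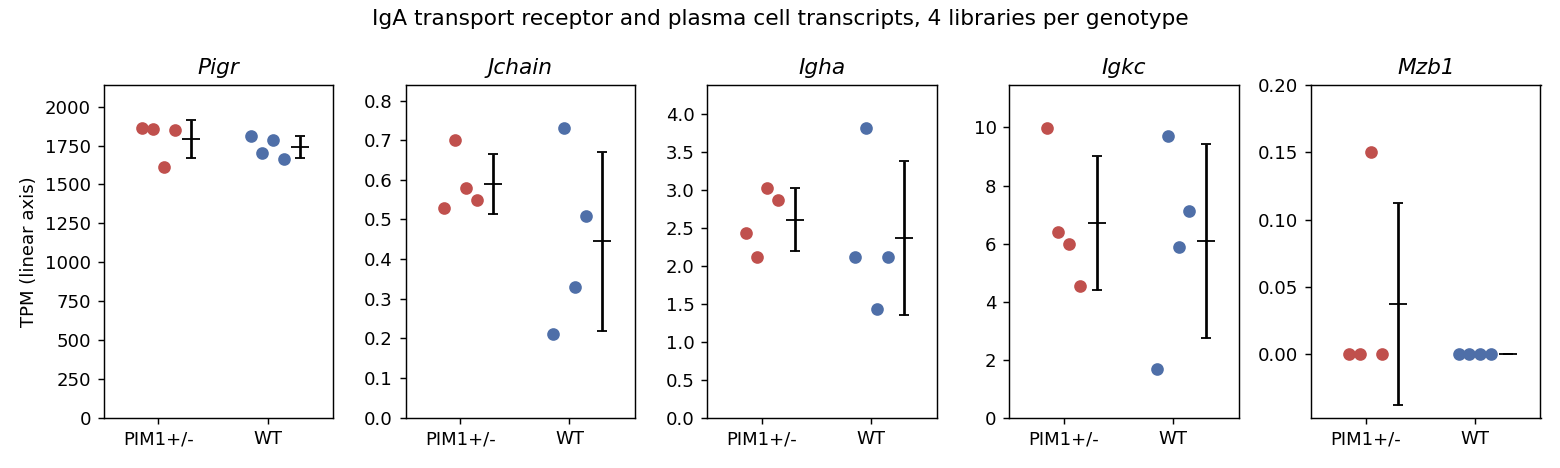
TPM of the 5 genes by library on linear axes with a scale of their own, PIM1+/- left and WT right, each point a library and the bar the mean ± SD of 4. Pigr lies between 1610.47 and 1860.86 TPM, while Igkc stays at or below 9.97 TPM, Igha at or below 3.81 TPM and Jchain at or below 0.73 TPM, and the genotypes overlap in all 5 panels.

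The order of levels was Pigr, Igkc, Igha, Jchain and Mzb1 by group mean in both genotypes. In PIM1+/- libraries the lowest Igkc value, 4.54 TPM, was above the highest Igha value, 3.03 TPM. In WT libraries Igkc and Igha overlapped, because Igkc in WT replicate 1 was below Igha there (0.791 times its level). In both genotypes every Igha value was above every Jchain value, and every Jchain value above every Mzb1 value. Of the 3 genes tested 0 passed an adjusted p of 0.05, where 17.5% of all 12760 genes did, and 0 at an unadjusted p under 0.05 (the smallest was 0.506). The groups overlapped for all 5 genes. Of tested genes 23.5% did not overlap, and of the 26705 genes above 0 in at least 1 library 13.5% did not.

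The receptor was then set against its cargo within each library. Pigr exceeded Igha by 766-fold, 880-fold, 532-fold and 646-fold in PIM1+/- replicates 1 to 4, against 860-fold, 447-fold, 1249-fold and 787-fold in WT replicates 1 to 4. The WT ratios again enclosed the PIM1+/- ratios. As a difference of log2(TPM + 1), Pigr minus Igha, the mean was 8.96 ± 0.25 in PIM1+/- and 9.06 ± 0.44 in WT libraries (SD, n = 4 each), a difference of -0.10 (exact permutation p = 0.771, two-sided). Pigr exceeded Igkc by 187-fold to 407-fold in PIM1+/- and by 176-fold to 1086-fold in WT libraries. The ratio of Igkc to Igha ran from 1.59 to 4.10 in PIM1+/- and from 0.791 to 4.12 in WT libraries, and that of Igha to Jchain from 3.01 to 5.22 and from 4.14 to 10.05 in the same order.

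The other immunoglobulin genes were examined to see which antibody classes accompanied IgA. Of 11 further constant region genes 0 reached 1 TPM in 4 libraries. Transcripts of IgG were listed in PIM1+/- libraries and almost absent from WT libraries. Summed over Ighg1, Ighg2b, Ighg2c and Ighg3, the heavy chains of the IgG subclasses, IgG measured 0.64, 1.32, 2.13 and 1.2 TPM in PIM1+/- replicates 1 to 4, against 0, 0, 0.07 and 0 TPM in WT replicates 1 to 4. The groups did not overlap. IgG made up 18.9% to 33.8% of heavy chain constant region TPM in PIM1+/- and 0 to 3.14% in WT libraries, and Igha 43.7% to 71.9% in PIM1+/- and 64.1% to 81.6% in WT libraries.

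Ighg2b measured 0.32, 0.66, 0.95 and 0.59 TPM in PIM1+/- replicates 1 to 4, against 0, 0, 0.07 and 0 TPM in WT replicates 1 to 4. Ighg2c measured 0.24, 0.39, 0.94 and 0.45 TPM in PIM1+/- replicates 1 to 4 and was listed at 0 in every WT library. For each of these genes all 4 PIM1+/- libraries were above all 4 WT libraries, which was so in either direction for 13.5% of the 26705 genes above 0 anywhere. In a limma fit of those 26705 genes with no filter on low values, where 2.89% were called higher, Ighg2b (adjusted p = 0.0147), Ighg1 (0.0191) and Ighg2c (0.0398) passed and Ighg3 (0.16) did not. Ighg1 was only at 0.08 to 0.13 TPM in PIM1+/- libraries and listed at 0 in every WT library. The IgG subclass genes are similar in sequence, which leaves the assignment of reads to one or another uncertain, and each value lies below 1 TPM. They were singled out after their values were seen.

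IgM and the light chains showed no such separation. Ighm, the heavy chain of IgM, measured 0.27, 1.29, 1.04 and 1.02 TPM in PIM1+/- replicates 1 to 4, against 0.43, 0.75, 0.61 and 0.49 TPM in WT replicates 1 to 4. Lambda light chains, summed over Iglc1 to Iglc4, ran from 0 to 1.34 TPM in PIM1+/- and from 0 to 2.33 TPM in WT libraries. Iglc1 averaged 0.623 ± 0.577 TPM in PIM1+/- and 0.253 ± 0.318 TPM in WT libraries (SD, n = 4 each). Of 348 variable segments, the genes that encode the antigen-binding domains, 69 were above 0 in at least 1 library, 0 in all 8, and 0 reached the filter. Their summed level was 13.71, 23.51, 20.89 and 17.64 TPM in PIM1+/- replicates 1 to 4, against 7.01, 15.79, 4.42 and 12.64 TPM in WT replicates 1 to 4, with overlap only between PIM1+/- replicate 1 and WT replicate 2. The most abundant, Igkv1-117, averaged 0.741 TPM over the 8 libraries and was above 0 in 6 of them, and Ighv1-34, Igkv4-61, Igkv10-94 and Igkv10-96 averaged 0.61, 0.606, 0.605 and 0.573 TPM.

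**Figure D2:**
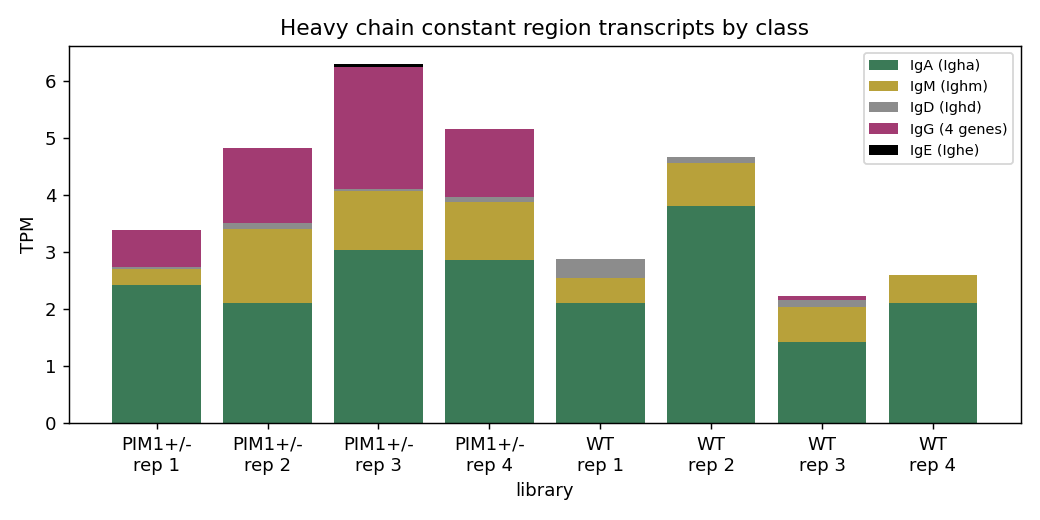
TPM of heavy chain constant regions in each library, stacked by antibody class, PIM1+/- libraries left and WT libraries right. IgA is the largest class in every library, and IgG adds 0.64 to 2.13 TPM in PIM1+/- libraries and at most 0.07 TPM in WT libraries.

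Markers of the cells that make antibodies were near 0. Of 16 B lineage markers 0 reached the filter, and their summed level was 1.2 to 1.94 TPM in PIM1+/- and 1.22 to 2.22 TPM in WT libraries. Blk and Fcmr were at 0 in every library, and Tnfrsf17, the plasma cell receptor for the survival factor APRIL, was listed at 0 in all PIM1+/- libraries and in 3 WT libraries, with 0.21 TPM in WT replicate 4. Cd27, which T cells also express, had the highest mean of the list, at 0.5 ± 0.133 TPM in PIM1+/- and 0.863 ± 0.393 TPM in WT libraries, followed by Eaf2 at 0.253 ± 0.257 and 0.26 ± 0.0837 TPM (SD, n = 4 each). In the fit without a filter, 5.39% of all genes were called, 2.89% higher. Of the B lineage markers above 0 in at least 1 library, 1 was called there. This was Irf4, a transcription factor of plasma cells and activated T cells, at 0.12 ± 0.0183 TPM in PIM1+/- and 0.0275 ± 0.0206 TPM in WT libraries (limma adjusted p = 0.0306).

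Markers of some other cell types moved with genotype, in a background of 8.93% of all tested genes called higher and 8.54% lower. Of 12 T and NK cell markers 8 were tested and 6 rose, and the list summed to 38.85 to 98.31 TPM in PIM1+/- and 8.96 to 21.29 TPM in WT libraries. Among them Gzmb, a cytotoxic protease, rose by 2.04 ± 0.17 (adjusted p = 0.000141) and Cd3e, a T cell receptor subunit, by 0.88 ± 0.19 (adjusted p = 0.0129). Of 12 myeloid markers 3 were tested and 2 rose, Cd14 and C1qa, with sums of 43.61 to 54.11 TPM in PIM1+/- and 25.81 to 32.15 TPM in WT libraries. Most of the sum was Cd14, at 33.92 to 45.71 TPM in PIM1+/- and 23.3 to 27.57 TPM in WT libraries. Lyz2, Cd68, Csf1r, C1qb and C1qc overlapped between genotypes, and C1qa was lowest among PIM1+/- libraries in replicate 4 (1.22 TPM), where C1qb (1.46 TPM) and C1qc (0.94 TPM) were highest. Itgax, a myeloid marker below the filter, did not overlap, at 0.48 to 0.9 TPM in PIM1+/- and 0.12 to 0.31 TPM in WT libraries. Its adjusted p was 0.0205 in the limma fit without a filter, where 2.89% of all genes were called higher. Of 11 stromal and vascular markers 2 were tested and 0 passed by limma, with 1 at an unadjusted p under 0.05, Vim (limma adjusted p = 0.117), and sums of 8.44 to 10.94 TPM in PIM1+/- and 8.06 to 10.64 TPM in WT libraries. Below the filter, Des was lower without overlap, at 0 to 0.02 TPM in PIM1+/- and 0.07 to 0.12 TPM in WT libraries. So was Myh11, at 0 to 0.03 and 0.04 to 0.07 TPM, and the rest of the list overlapped. In limma without a filter the adjusted p was 0.0342 for Des and 0.173 for Myh11. Gzmb, Cd3e, Nkg7, Cd8a and C1qa reached the filter only through the PIM1+/- libraries, so being tested already favoured a rise. In the limma fit without a filter their adjusted p was 0.00174, 0.0439, 0.0208, 0.049 and 0.0486 in that order. The part of T, NK, myeloid and stromal cells in the IgG values was not tested.

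Epithelial markers were high throughout, as in a preparation of colon epithelium. The 10 markers summed to 16459 to 17521 TPM in PIM1+/- and 14744 to 15796 TPM in WT libraries. Of these, 6 rose and 0 fell, beside 8.93% of all tested genes called higher and 8.54% lower. Their median was 0.19 where all tested genes had -0.01. Vil1, an actin bundler of the brush border, rose by 0.36 ± 0.06 (adjusted p = 0.00418) and Krt20, a keratin of mature colonocytes, by 0.62 ± 0.12 (adjusted p = 0.00849), while Epcam averaged 1284 ± 86.8 TPM in PIM1+/- and 1226 ± 47.1 TPM in WT libraries (adjusted p = 0.474). The number that rose was 2 without PIM1+/- replicate 2, WT replicate 3 or WT replicate 4 and 3 without PIM1+/- replicate 3 or WT replicate 1. In those fits 744 to 879 of all tested genes were higher. With values scaled to the summed epithelial markers, which moves the median of all genes to -0.15, the log2 fold change of Pigr was -0.12 (adjusted p = 0.213).

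Regulators known to act on Pigr transcription, in mouse or human cells, were compared next. All 22 were tested, and 7 rose and 1 fell, where 8.93% of all genes (1139) were called higher and 8.54% (1090) lower. The split of all genes was 926 higher and 1520 lower after upper quartile scaling, 854 and 1550 without mitochondrial transcripts, and 572 and 2695 after scaling to epithelial markers. Their median was 0.20. Irf1, an interferon-induced transcription factor known to act on PIGR in human cells, measured 122.53, 120.07, 116.89 and 119.25 TPM in PIM1+/- replicates 1 to 4, against 75.99, 91.02, 76.71 and 93.91 TPM in WT replicates 1 to 4. It rose by 0.51 ± 0.08 (adjusted p = 0.00293) with no overlap between genotypes.

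Tlr3, a sensor of double-stranded RNA, rose by 0.58 ± 0.12 (adjusted p = 0.0127) to 19.7 ± 2.92 TPM in PIM1+/-, against 12.8 ± 1.89 TPM in WT libraries. Irf1 and Tlr3 passed with each of the 8 libraries left out in turn. Il17rc, a subunit of the interleukin 17 receptor, rose by 0.50 ± 0.12 (adjusted p = 0.0219). The adjusted p of Il17rc was 0.0529 without PIM1+/- replicate 1, 0.0507 without PIM1+/- replicate 3, 0.0549 without WT replicate 4 and 0.0642 without the filter. Myd88, the adaptor of Toll-like receptors, rose by 0.22 ± 0.05 (adjusted p = 0.0221), and its adjusted p was 0.0566 and 0.0526 without PIM1+/- replicates 3 and 4 and 0.0669 and 0.0599 without WT replicates 1 and 4. It was also 0.0792 with the replicate number as a block, 0.0606 without mitochondrial transcripts and 0.472 after scaling to epithelial markers, where the log2 fold change of Myd88 was 0.07.

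The E-box factors Usf1 and Usf2, whose proteins bind the motif CACGTG, did not pass. Their binding to the Pigr window printed above was not tested. Usf1 averaged 42.5 ± 4.63 TPM in PIM1+/- and 37.4 ± 3.17 TPM in WT libraries (adjusted p = 0.209), and Usf2 42.0 ± 6.58 TPM in PIM1+/- and 48.0 ± 9.01 TPM in WT libraries (adjusted p = 0.447). Of the interferon gamma receptor chains, Ifngr1 fell by 0.18 on the log2 scale (adjusted p = 0.0276) and Ifngr2 had a log2 fold change of -0.01 (adjusted p = 0.924). The adjusted p of Ifngr1 was 0.0732 and 0.0533 without PIM1+/- replicates 2 and 4, 0.0872, 0.0527 and 0.0538 without WT replicates 1, 2 and 4, 0.0904 with the block and 0.0687 in limma without the trend. The number of regulators that rose was 4 without PIM1+/- replicate 3 or WT replicate 1, 4 without the filter, and 4, with 2 that fell, after scaling to epithelial markers. Of all tested genes, 836 were higher without PIM1+/- replicate 3 and 772 without WT replicate 1. Without the filter 773 of 26705 genes were higher, and after that scaling 572 of 12760 were higher and 2695 lower.

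**Figure D3:**
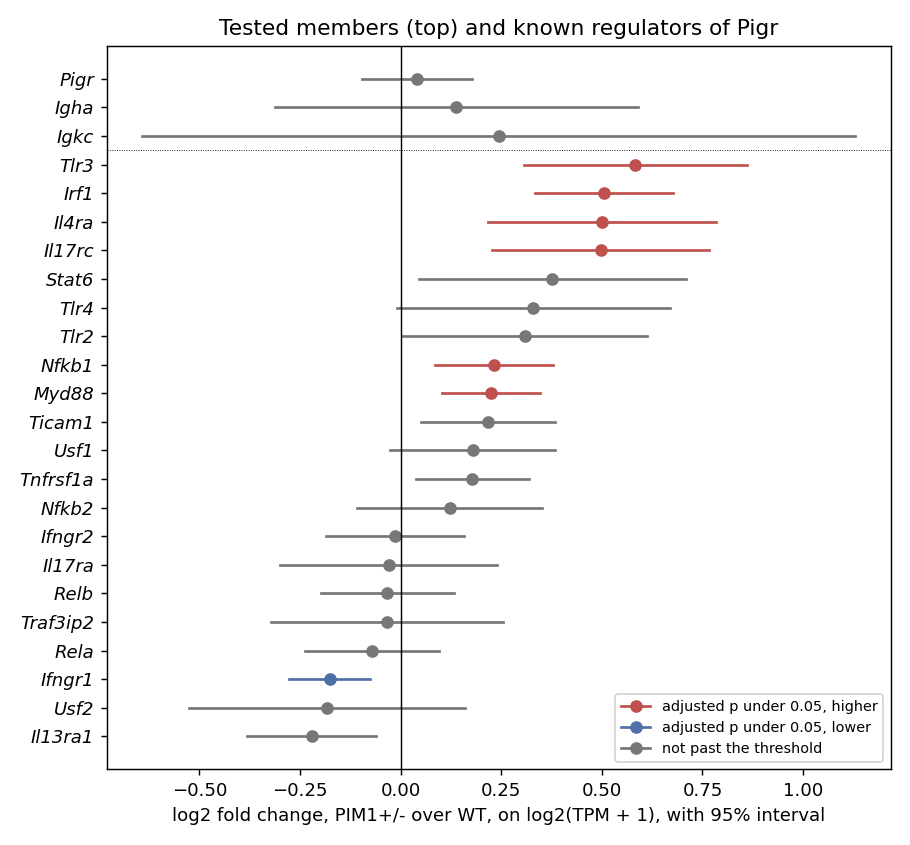
Log2 fold change, PIM1+/- over WT, on log2(TPM + 1) with its 95% interval for Pigr, Igha and Igkc above the dotted line and for 21 known regulators of Pigr below it. Pigr lies at 0.04 with an interval of -0.09 to 0.18, while Irf1 lies at 0.51 and Tlr3 at 0.58.

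Genes of IgA induction and of plasma cell homing moved in both directions. Of 19 genes 8 were tested, of which 2 rose and 1 fell, beside 8.93% of all genes called higher and 8.54% lower, with a median of 0.15. Tnfsf13b, which encodes the B cell survival factor BAFF, measured 4.56, 4.53, 5.4 and 4.89 TPM in PIM1+/- replicates 1 to 4, against 1.26, 2.41, 1.06 and 1.89 TPM in WT replicates 1 to 4. It rose by 1.16 ± 0.16 (adjusted p = 0.0022). Ccl28, an epithelial chemokine that draws IgA plasma cells through the receptor Ccr10, measured 39.47, 44.29, 40.62 and 44.76 TPM in PIM1+/- replicates 1 to 4, against 61.46, 56, 72.7 and 61.84 TPM in WT replicates 1 to 4. It fell by 0.56 on the log2 scale (SE 0.08, adjusted p = 0.00286). Tnfsf13b and Ccl28 did not overlap between genotypes, kept their direction in each scaling tried, and passed with each library left out.

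Ccr10 itself averaged 1.38 ± 0.317 TPM in PIM1+/- and 1.28 ± 0.329 TPM in WT libraries (adjusted p = 0.816). Itgb7, an integrin chain of gut-homing lymphocytes that intraepithelial T cells also carry, rose by 0.59 ± 0.15 (adjusted p = 0.0257) to 1.61 ± 0.236 TPM in PIM1+/-, against 0.74 ± 0.287 TPM in WT libraries. Its adjusted p was 0.0566 and 0.0573 without PIM1+/- replicates 2 and 4, 0.0694, 0.0526 and 0.065 without WT replicates 1, 2 and 4, and 0.0684 with the replicate number as a block. Itgb7 reached the filter only through the PIM1+/- libraries, and its adjusted p was 0.0525 in the limma fit without a filter. Tnfsf13, the gene of APRIL, averaged 22.4 ± 2.49 TPM in PIM1+/- and 20.8 ± 2.97 TPM in WT libraries (adjusted p = 0.564), and Aldh1a1, an enzyme of retinoic acid synthesis, 138 ± 9.89 TPM in PIM1+/- and 124 ± 31.6 TPM in WT libraries (adjusted p = 0.473).

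The machinery that moves the receptor across the cell was read next. Of 22 genes of transcytosis and apical recycling 21 were tested, 3 rose and 0 fell, beside 8.93% of all genes called higher and 17.5% in either direction, and their median was 0.04. With values scaled to epithelial markers, which moves the median of all genes to -0.15, 0 rose and 5 fell. Of all 12760 genes, 572 were higher and 2695 lower with that scaling. Stx3, an apical membrane fusion protein, rose by 0.41 ± 0.09 (adjusted p = 0.0114) and passed with each library left out, with an adjusted p of 0.054 when values were scaled to epithelial markers. Mal2, required for transcytosis in cultured human liver cells, rose by 0.21 ± 0.06 (adjusted p = 0.0426), and Rab11a, a GTPase of recycling endosomes, by 0.33 ± 0.10 (adjusted p = 0.0431). The adjusted p of Mal2 ran from 0.0545 to 0.0922 in the 7 fits without PIM1+/- replicate 1, 2, 3 or 4 or WT replicate 1, 3 or 4 and was 0.0741 with the block, and that of Rab11a ran from 0.0729 to 0.108 in the 5 without PIM1+/- replicate 1, 2 or 3 or WT replicate 1 or 4. Rab25 and Vamp8, a GTPase and a fusion protein of the apical route, averaged 233 ± 7.57 and 193 ± 8.6 TPM in PIM1+/-, against 239.6 ± 10.5 and 185 ± 7.42 TPM in WT libraries (adjusted p = 0.621 and 0.452). The number that rose was 1 without PIM1+/- replicate 1, 2 or 3 or WT replicate 1 or 4, and 1 in limma without the trend, in the fit without a filter, and after upper quartile scaling or rescaling without mitochondrial transcripts. Of all tested genes, 744 to 870 were higher in the fits that left out 1 of those libraries. In the other fits 974, 773 of 26705, 926 and 854 genes were higher, in the order named.

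Other immunoglobulin receptors were lower in PIM1+/- libraries where they passed. Of 10 genes 4 were tested, 2 fell and 0 rose, beside 8.54% of all genes called lower. Fcamr, a receptor for IgA and IgM, fell by 0.42 on the log2 scale (adjusted p = 0.0207) to 2.67 ± 0.223 TPM in PIM1+/-, against 3.92 ± 0.362 TPM in WT libraries. Fcgrt, the heavy chain of the neonatal Fc receptor that carries IgG across epithelia, fell by 0.35 (adjusted p = 0.0424) to 30.8 ± 3.72 TPM in PIM1+/-, against 39.3 ± 3.65 TPM in WT libraries. The adjusted p of Fcamr was 0.0504 without PIM1+/- replicate 2, 0.057 without WT replicate 1, 0.052 without WT replicate 3 and 0.052 with the replicate number as a block. The number that fell was 1 without PIM1+/- replicate 2, 3 or 4 or WT replicate 2 or 4, and 0 without WT replicate 1 or 3, without the filter or with the block. Of all tested genes, 672 to 1041 were lower in the fits where 1 fell. Without WT replicates 1 and 3, 602 and 679 genes were lower, without the filter 666 of 26705, and with the block 689. The adjusted p of Fcgrt ran from 0.0505 to 0.106 in the 7 fits without PIM1+/- replicate 1, 3 or 4 or any of the WT replicates, and was 0.0957 with the block.

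Genes of the secretory pathway that plasma cells share with secretory epithelium were also read, because they cannot be assigned to either cell type here. Of 13 such genes 11 were tested, 5 rose and 0 fell, beside 8.93% of all genes called higher and 8.54% lower, with a median of 0.28. Ssr4, a subunit of the translocon-associated complex, rose by 0.28 ± 0.06 (adjusted p = 0.0126) to 267 ± 13.1 TPM in PIM1+/-, against 221 ± 12.9 TPM in WT libraries. Fkbp11, a folding enzyme of the endoplasmic reticulum, rose by 0.89 ± 0.20 (adjusted p = 0.0163) to 29.9 ± 7.42 TPM in PIM1+/-, against 15.6 ± 3.55 TPM in WT libraries. Both passed with each library left out, with an adjusted p of 0.17 for Ssr4 when scaled to epithelial markers and of 0.0537 for Fkbp11 without the filter. Pdia4 rose by 0.35 ± 0.08 (adjusted p = 0.0227), Sec11c by 0.38 ± 0.09 (adjusted p = 0.0243) and Creld2 by 0.54 ± 0.16 (adjusted p = 0.044).

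The adjusted p of Pdia4, a disulfide isomerase, was 0.0553 and 0.0587 without WT replicates 3 and 4. That of Sec11c, a signal peptidase subunit, was 0.0501 without PIM1+/- replicate 4 and 0.0596, 0.0551 and 0.0616 without WT replicates 1, 3 and 4, with 0.0532 under the block. That of Creld2 ran from 0.0531 to 0.107 in the 7 fits without any of the PIM1+/- replicates or WT replicate 1, 3 or 4. The number that rose was 3 without PIM1+/- replicate 4 or WT replicate 1 and 2 without WT replicate 3 or 4. In those fits 744 to 964 of all tested genes were higher. The number that rose was 1 with epithelial marker scaling, where 572 of all 12760 genes were higher. It was 1 without the filter, where 773 of 26705 genes were higher. Xbp1, a transcription factor of secretory cells, averaged 162 ± 14.6 TPM in PIM1+/- and 150 ± 15.2 TPM in WT libraries (adjusted p = 0.418), and Sdc1, a plasma cell surface marker that epithelium carries too, 118 ± 3.23 TPM in PIM1+/- and 108 ± 8.73 TPM in WT libraries (adjusted p = 0.191). The levels of Xbp1 and Sdc1 lie far above those of Igha, Jchain and Mzb1. Prdm1, of the same list but below the filter, was at 0.63 to 1.72 TPM in PIM1+/- and 0.36 to 0.46 TPM in WT libraries. Its groups did not overlap, as for 13.5% of the 26705 genes above 0 anywhere, and its adjusted p was 0.0625 in limma without a filter. Derl3, also below the filter, overlapped.

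**Figure D4:**
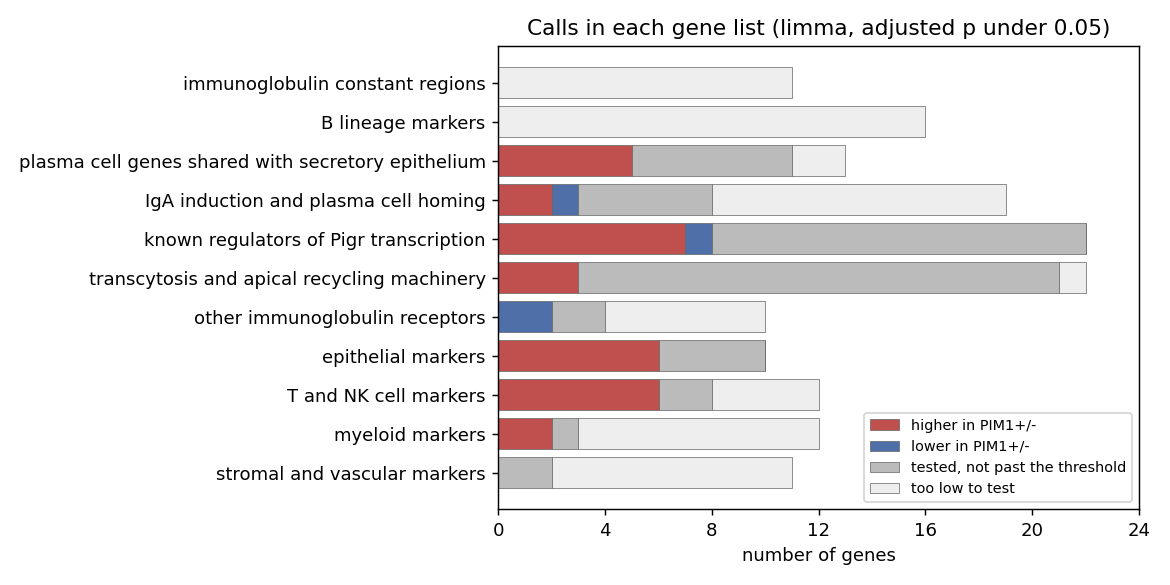
Number of genes in each list that were higher or lower in PIM1+/- libraries by limma at an adjusted p of 0.05, tested without passing, or too low to test. All 11 further immunoglobulin constant regions and all 16 B lineage markers were too low to test, while 7 of 22 Pigr regulators were higher and 1 lower.

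Predicted gene models, recognised by their symbols, were left out of a search for genes like each member. Among the other tested genes, those with the most similar pattern over the 8 libraries were found by the Pearson correlation of log2(TPM + 1), with genotype left in, as a description. For Pigr they were Tfip11 (r = 0.941), Tnfsf13os (r = 0.938) and Gpr20 (r = 0.924). For Igha they were Cptp (r = 0.940), Nme6 (r = 0.914) and Ubn1 (r = 0.910), and for Igkc Siah2 (r = 0.945), Smarce1 (r = 0.934) and Ccdc43 (r = 0.915). Values of this size come as the highest of many genes over 8 libraries, here the 12760 tested ones without predicted gene models. Igha and Igkc, both made by B lineage cells, had r = 0.301 with each other, and Pigr had r = -0.332 with Igha and r = -0.199 with Igkc.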

How the data were processed

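RNA had been extracted with TRIzol, per the labels' protocols, and the deposited values are TPM per gene that the authors quantified with RSEM, per the series' design text. HISAT2, StringTie and edgeR appear without a role in the submitters' processing notes, beside the build GRCm38.p6. The sources used here do not give filters, annotation release or strand setting. TPM is rescaled per library, so abundant transcripts shift the others, and reads shared by similar genes are divided by estimation. Of the Pigr regulators, 1 is counted but not reported here by name. Gene coordinates came from GENCODE M21. All 8 per-sample columns were used (0 left out).

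Log2(TPM + 1) was fitted with limma 3.58.1 in R 4.3.3 (genotype only, mean-variance trend, two-sided, Benjamini-Hochberg over the 12760 genes that reached 1 TPM in 4 or more libraries, threshold 0.05) and checked on simulated data. Genes below the filter and the receptor to IgA ratio had exact permutation tests (SciPy 1.17.1). The members, the 11 lists and the tests were chosen with earlier results of these data known. Named were the members, up to 5 called genes per list with the smallest p or, without a call, up to 2 with the highest mean, the 5 most abundant variable segments and the 3 genes most like each member, with further genes chosen after their values were seen. Alternatives were limma without the trend, 4 other scalings, 2 other filters, a pseudocount of 0.1, a replicate block, and leaving out each library. Figures were drawn with matplotlib 3.10.9.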

Additional observations from a re-analysis of the deposited data

Results flagged for a closer look

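Of 84 groups of 4 libraries examined, 5 held a library far from the other 3 by Dixon's criterion, and chance flags about 1 in 20 groups. Pigr in PIM1+/- replicate 3 was at 1610.47 TPM, with the other PIM1+/- libraries at 1848.95 to 1860.86 TPM, and without that library its log2 fold change was 0.09 (limma adjusted p = 0.29). Mzb1 was at 0.15 TPM in the same library and listed at 0 in the other 3. Creld2 was at 57.98 TPM in PIM1+/- replicate 1, with the others at 37.6 to 40.15 TPM. Cd27 was at 1.45 TPM in WT replicate 2, with the others at 0.62 to 0.7 TPM. Itgb7 was at 1.17 TPM in WT replicate 3, with the others at 0.58 to 0.61 TPM. What set these libraries apart was not tested.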

How the results depend on the processing

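Of 502 values recomputed, 422 kept their direction and side of the threshold or stayed within 1.5 times the count, 72 moved and 8 reversed. The 94 recomputed differences of the 5 genes and the ratio gave 0 past the threshold. For Jchain, Mzb1 and the ratio that says nothing where a library was left out or the block was used, since the exact permutation test then allows no p below 0.0571 and 0.125, both above the threshold. The cause of each change below was not tested unless stated. The log2 fold change of Pigr was -0.0055 after upper quartile scaling, -0.019 without mitochondrial transcripts and -0.12 after scaling to epithelial markers, that of Igkc was -0.17 without WT replicate 1, and that of Igha -0.0030 without WT replicate 3. The Pigr to Igha difference was 0.010 without PIM1+/- replicate 3 and 0.057 without WT replicate 3, and that of Mzb1 was 0 without PIM1+/- replicate 3, the library that held its value.

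Limma without the trend gave 1 higher transcytosis gene, 0 lower regulators and 1 lower immunoglobulin receptor. Upper quartile scaling gave 1 higher transcytosis gene, 3 higher epithelial markers and 2 lower regulators, and rescaling without mitochondrial transcripts 1 and 2 of the first and last. Scaling to epithelial markers gave 572 higher and 2695 lower genes, 1 higher shared secretory gene, 4 higher and 2 lower regulators, 0 higher and 5 lower transcytosis genes, and 2 higher and 2 lower epithelial markers. The fit with no filter gave 773 higher and 666 lower genes of 26705. Among them were 3 higher immunoglobulin constant regions, and 1 higher B lineage, shared secretory, homing and transcytosis gene each. It also gave 4 higher regulators, 2 higher epithelial markers, 0 lower immunoglobulin receptors and 1 lower stromal marker. A mean of at least 5 TPM, which tests fewer genes, gave 0 higher homing genes, 2 T and NK cell markers, 1 myeloid marker and 1 lower immunoglobulin receptor.

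Leaving out 1 library at a time gave 744 to 1009 higher and 602 to 1041 lower genes, 2 to 5 higher shared secretory genes, 1 to 2 homing genes, 4 to 7 regulators with 0 to 1 lower, 1 to 4 transcytosis genes, 2 to 5 epithelial markers and 0 to 2 lower immunoglobulin receptors. The count of lower genes was 602, 679 and 672 without WT replicates 1, 3 and 4. The log2 differences ran from 0.019 to 0.093 for Pigr, 0.069 to 0.24 for Jchain, -0.0030 to 0.33 for Igha, -0.17 to 0.50 for Igkc, 0 to 0.067 for Mzb1 and -0.29 to 0.057 for the ratio. Libraries with the same replicate number did not deviate together (r = -0.136, 0.032, -0.033 and -0.071). No shared effect of the number was seen, but whether libraries were matched by number cannot be told from these values. With the replicate block 760 genes were higher and 689 lower, with 1 higher homing gene, 0 lower regulators and 0 lower immunoglobulin receptors. TPM keeps no depth, so what the low values of Jchain, Mzb1 and IgG can resolve is unknown.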
